A study of Homo sapiens with 22 samples.

Results

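The nuclear pore and nuclear transport genes comprised 54 of the 20411 protein-coding genes listed in each expression table and were chosen by gene symbol. They covered 10 roles, from the rings, channel, filaments and basket of the nuclear pore to the importins, the exportins and the Ran cycle. Transcripts were measured by mRNA sequencing in MOLM-13 and NB4, which are established human acute myeloid leukemia (AML) cell lines, both labelled WT. MOLM-13 carries an MLL-AF9 fusion, and NB4 is a promyelocytic line with a PML-RARA fusion. Each line was exposed for 48 hours to the vehicle dimethyl sulfoxide (DMSO) or to 2 μM FP54, a compound made to bring FTO, an RNA demethylase that removes N6-methyladenosine, to the VHL ubiquitin ligase for degradation. Each of the 4 groups held 3 libraries. Nothing in the labels says whether these came from separate cultures, so p-values measure the spread between the libraries, which may be technical. The comparison asks how transcript levels of the nuclear transport machinery changed with FP54 in each line, and whether the change differed between lines.

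The nuclear pore complex is a ring of proteins called nucleoporins set in the nuclear envelope. Large cargo crosses it bound to importins, which carry proteins in, or exportins, which carry proteins and RNA out. The small GTPase RAN gives the traffic its direction, because RAN bound to GTP in the nucleus releases cargo from importins and loads it onto exportins, while RANGAP1 and RANBP1 at the cytoplasmic face of the pore bring about GTP hydrolysis. Ribosomal proteins enter, and ribosomal subunits leave, by the same route.

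Promoter sequence was examined for the 49 members with an entry in the RefSeq promoter table (GRCh38.p14), over the 250 bases before the start of the gene. The letters CACGTG, the canonical E-box, which reads the same on both strands and is bound by MYC, MAX and USF proteins, were found in 7 of these 49 windows (14.3%), against 9.31% of 8720 windows of genes tested in either line and 6.49% of all 27305 windows. The members holding it were NUP188, NUP50, KPNA3, TNPO2, IPO4, IPO7 and RAN. Among members that fell with FP54 in at least one line, 3 of 14 held it (21.4%), against 3 of 34 tested members that fell in neither (8.82%). Of the former 3, RAN fell in both lines and IPO7 and KPNA3 in MOLM-13 alone. The share among all genes that fell was not computed, and whether the motif goes with the fall was not tested. A match is a description of the letters and not a bound site. The 3 windows of members that fell are shown because RAN, IPO7 and KPNA3 return in the results below. Each reads 5′ to 3′ on the strand of the gene, with CACGTG in capitals.
RAN, chr12:130871816-130872065, plus strand: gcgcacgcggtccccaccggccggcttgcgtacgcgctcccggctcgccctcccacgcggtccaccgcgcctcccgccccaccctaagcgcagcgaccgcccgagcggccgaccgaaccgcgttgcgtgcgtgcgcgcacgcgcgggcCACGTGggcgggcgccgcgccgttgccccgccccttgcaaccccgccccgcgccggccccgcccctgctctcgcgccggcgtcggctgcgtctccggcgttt
IPO7, chr11:9384402-9384651, plus strand: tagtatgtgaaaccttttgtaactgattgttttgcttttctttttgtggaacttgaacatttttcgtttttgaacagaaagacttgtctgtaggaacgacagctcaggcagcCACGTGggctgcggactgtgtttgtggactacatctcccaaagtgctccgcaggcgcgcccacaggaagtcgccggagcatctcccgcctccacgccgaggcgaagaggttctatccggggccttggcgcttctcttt
KPNA3, chr13:49792683-49792932, minus strand: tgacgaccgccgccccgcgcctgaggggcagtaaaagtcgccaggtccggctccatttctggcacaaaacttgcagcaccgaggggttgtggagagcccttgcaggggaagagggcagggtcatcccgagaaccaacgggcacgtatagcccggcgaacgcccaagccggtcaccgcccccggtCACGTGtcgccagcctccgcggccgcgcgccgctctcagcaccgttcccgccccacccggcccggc
The motif began 102 bases before the gene start of the RefSeq promoter table in RAN, 138 bases in IPO7 and 66 bases in KPNA3. For RAN, the GENCODE v44 annotation puts the start at chr12:130872037, inside the window shown. The members lay on 19 chromosomes, with at most 6 on any chromosome, so they did not form a cluster of neighbours.

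The deposited values are RPKM, read numbers scaled to exon length and to the size of the library. Reads on genes, recovered from the low RPKM values and gene lengths, ran from 5833284 to 22331810 per library. The shallowest library was FP54 replicate 2 of MOLM-13, and every NB4 FP54 library (10594715 to 13069227 reads) was shallower than every NB4 DMSO library (20645209 to 22331810 reads). The 10 myeloid markers summed to 1399 to 2095 RPKM in MOLM-13 and were all at a mean of 1 RPKM or more. In NB4, 9 of 10 were, and their sum was 2285 to 2564 RPKM with DMSO and 1265 to 1339 with FP54, most of it MPO, the neutrophil granule peroxidase, while CD33 averaged 13.3 and 13.5 RPKM and ITGAM, the integrin CD11b, 3.64 and 14.3. HOXA9, a gene that MLL fusions keep on, averaged 21.3 RPKM in MOLM-13 with DMSO and 0.234 in NB4. With DMSO, the 6 MOLM-13 markers including HOXA9 summed to 133 to 166 RPKM in MOLM-13 and 19.3 to 21.9 in NB4. Of these, HOXA10 alone was higher in NB4 (7.3 and 13.2 RPKM). The 5 NB4 markers instead summed to 714 to 1056 RPKM in MOLM-13 and 118 to 150 in NB4 with DMSO. Among them, HGF alone was higher in NB4 (mean 3.32 RPKM, at most 0.124 in any MOLM-13 library). The identity of the lines was not tested. Markers of T cells (6 genes) and B cells (5) summed to at most 0.614 and 1.22 RPKM in MOLM-13, with CD3G, CD2 and TRBC2 at 0 in every library. In NB4 the T cell sum was 6.14 to 7.11 RPKM with DMSO and 11.2 to 11.69 with FP54, of which CD3D averaged 6.35 and 10.3 while CD5 and TRBC2 were at 0, and the B cell sum was 4.26 to 6.36 and 7.29 to 7.46, of which CD79B averaged 3.94 and 5.79 with MS4A1 at no more than 0.0396 RPKM in any library. Olfactory receptor genes, which blood cells are not known to use, averaged 0.0509 to 0.0544 RPKM in the NB4 FP54 libraries and 0.00175 to 0.00387 in the NB4 DMSO libraries. The part of these differences in the results was not tested. Subtracting the olfactory level from every value left every call among the members, and the count of 6 members that differed between lines, as it was. That level was at most 0.0544 RPKM, against a mean of at least 1 RPKM for tested members. The subtraction could thus hardly move a call, and it decides nothing here.

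Of the 54 members, 52 were tested in MOLM-13 and 53 in NB4, that is, had a mean of at least 1 RPKM over the 6 libraries of the line. IPO13 averaged 1.17 RPKM with DMSO and 0.756 with FP54 in MOLM-13 and missed this filter. IPO4 was listed at 0 in all MOLM-13 libraries and had 0 to 3 reads per library in NB4. Of the exon length of IPO4, 68.7% is shared on the same strand with a second annotated gene, ENSG00000259522, and whether this set its reads was not tested. The tested members held 32 to 11690 reads per library in MOLM-13, from NUP35 to KPNB1, and 209 to 23137 in NB4, from NUP35 to RAN. A gene was called where limma returned p below 0.01 and an absolute log2 fold change of 0.5 or more on the log2(RPKM + 0.1) scale, and adjusted p-values are Benjamini-Hochberg values over all genes tested in that line. In RNA from whole cultures, fewer cells that use a gene and less RNA per cell cannot be told apart.

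With DMSO, KPNB1 (64.1 RPKM) was the most abundant member in MOLM-13, followed by RAN (51.3) and TPR (48.9). RAN led in NB4 (207 RPKM), followed by RANBP1 (160) and KPNB1 (75.4). The 2 tables were normalized separately, so levels are set side by side with no test. The NB4 mean exceeded the MOLM-13 mean for 49 of 53 members with at least 1 RPKM in MOLM-13, with a median ratio of 1.96 against 1.08 over the 8849 genes tested in both lines. The ratio was highest for KPNA2, an importin alpha (3.14 and 40.7 RPKM, ratio 12.9), and RANGAP1 (7.17 and 47.5 RPKM, ratio 6.63). TPR, the long coiled-coil protein of the nuclear basket, was lower in NB4 (22.3 RPKM, ratio 0.456).

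At the stated cutoff, the 3 genes of the Ran cycle were the members that fell with FP54 in both lines, while most members were not called in either line. By the adjusted p alone (limma, below 0.05), IPO5, NUP88 and SEH1L were also lower in both, making 6 of 52 members (11.5%, against 5.05% of all genes). In MOLM-13, 10 of 52 tested members fell (19.2%, against 9.04% of the 9710 genes tested) and AAAS rose (9.30% of all genes rose). The 10 were RAN, RANGAP1, RANBP1, the importins KPNA1, KPNA3, IPO5 and IPO7, the exportin XPOT and the nucleoporins NUP88 and SEH1L. In NB4, 8 of 53 fell (15.1%, against 10.7% of 9853 genes), namely RAN, RANGAP1, RANBP1, the importin alpha KPNA2 and the nucleoporins NUP62, NUP93, NUP205 and NDC1, and NUP210 rose (18.6% of all genes rose). In MOLM-13, 16 members fell without DMSO replicate 2 (12.4% of all genes in that fit) or without FP54 replicate 3 (10.4%), and 7 without FP54 replicate 1 (5.19%). Without DMSO replicate 1, 3 members rose in NB4 (21.9% of all genes), TPR and XPOT in addition to NUP210. After quantile normalization, 7 members fell and 2 rose in NB4, and the split over all genes moved from 1050 lower and 1834 higher to 1363 lower and 1280 higher. The median log2 fold change of the tested members was -0.26 in MOLM-13 against 0.0033 over all genes, and -0.19 in NB4 against 0.070. Without DMSO replicate 1 the NB4 median was -0.097. The fitted value was below 0 for 44 of 52 members in MOLM-13 (84.6%, against 49.7% of all genes) and 39 of 53 in NB4 (73.6%, against 44.2%), called or not. By library, the median of the members relative to their DMSO mean was 0.13, -0.15 and 0.0041 with DMSO and -0.33, -0.44 and -0.048 with FP54 in MOLM-13, so FP54 replicate 3 lay above DMSO replicate 2 and the groups overlapped. The NB4 medians were 0.10, -0.16 and 0.066 with DMSO and -0.16, -0.19 and -0.17 with FP54, so DMSO replicate 2 was level with FP54 replicate 1.

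A cutoff on the adjusted p alone (below 0.05) gave the same 10 lower members and AAAS in MOLM-13, where 9.32% of all genes were lower and 9.84% higher by this rule. In NB4 it gave 20 lower and 3 higher members (37.7% and 5.66%), against 22.0% and 29.8% of all genes. All 3 FP54 libraries lay below all 3 DMSO libraries for 16 of 52 members in MOLM-13, where 17.0% of all genes did so, and above for AAAS alone (20.2% of all genes). In NB4 this held for 22 members below (26.2% of all genes) and 4 above (34.3% of all genes).

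**Figure D1:**
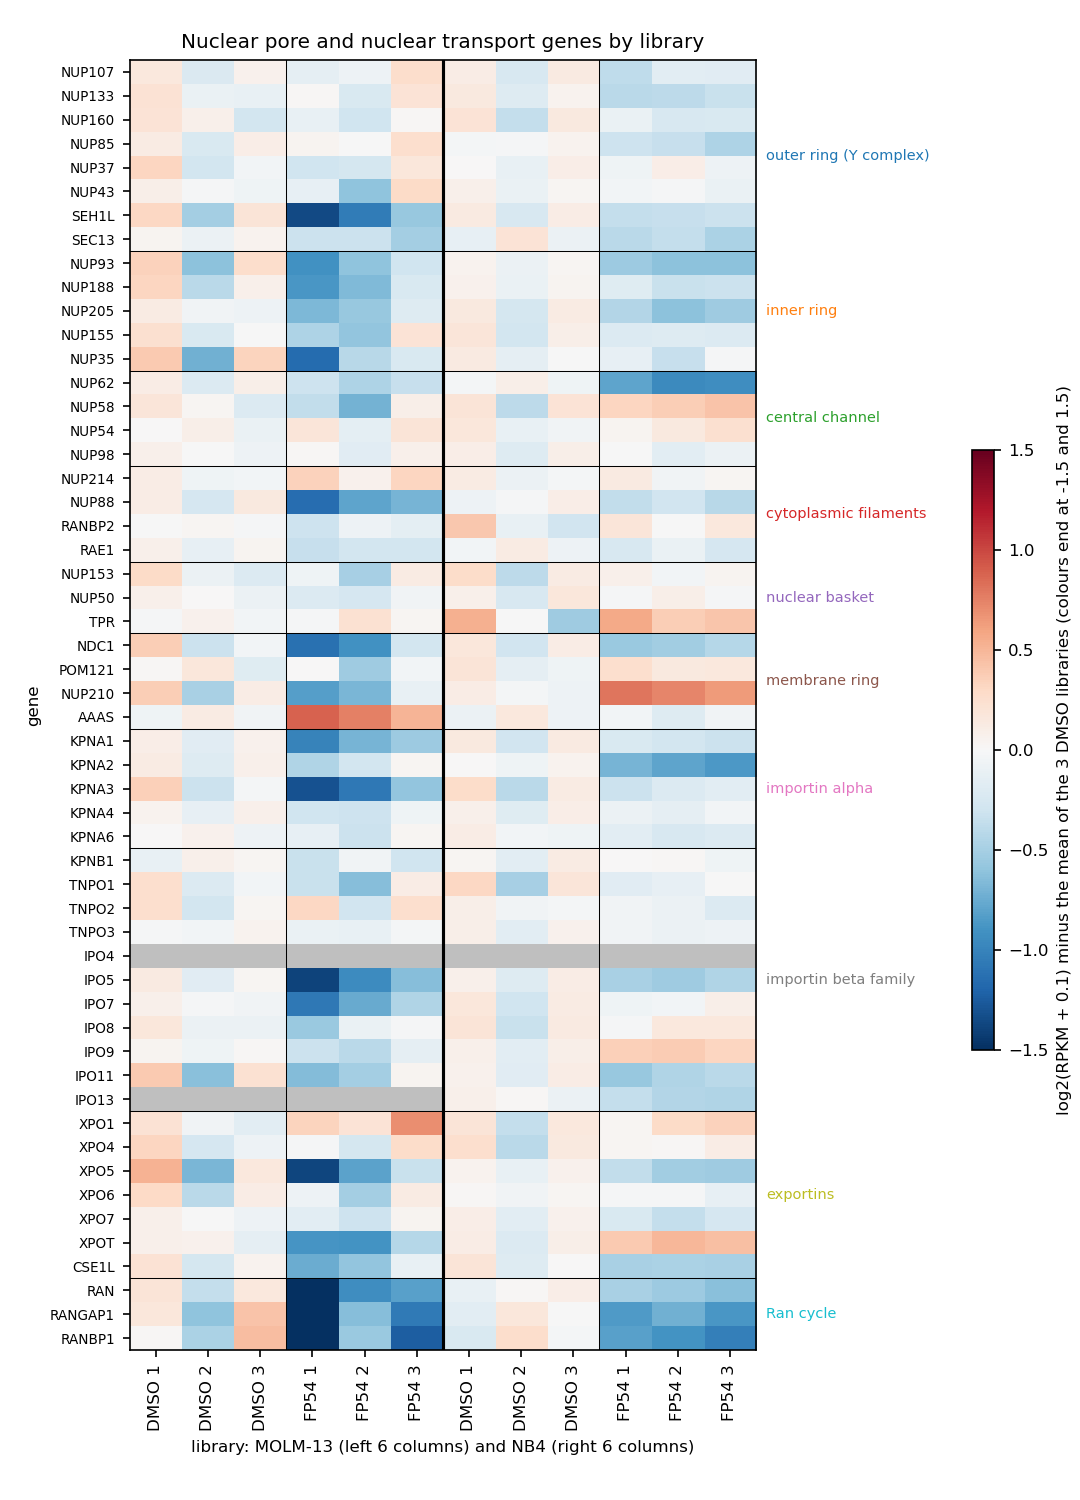
Each row is a member grouped by role, each column a library of MOLM-13 (left) or NB4 (right), and the colour is log2(RPKM + 0.1) minus the mean of the 3 DMSO libraries of that line, blue lower and red higher, with members not tested in a line in grey. The FP54 columns are blue across the Ran cycle rows in both lines, while XPOT is blue in the MOLM-13 FP54 columns and red in those of NB4. NUP210 is red in the NB4 FP54 columns. In MOLM-13 its FP54 replicate 3 is near white (-0.11) and its DMSO replicate 2 is blue (-0.49), so the groups overlap.

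The Ran cycle genes fell in both lines. RAN was at 57.9, 39.4 and 56.5 RPKM in the MOLM-13 DMSO libraries and at 17.9, 26.5 and 28.8 RPKM in the FP54 libraries. The FP54 mean was 24.4 ± 5.71 RPKM against 51.3 ± 10.3 (SD, n = 3), a log2 fold change of -1.08 (SE 0.21, adjusted p = 0.00919, limma). In NB4, RAN was at 191, 209 and 222 RPKM with DMSO and at 147, 141 and 134 RPKM with FP54. The groups did not overlap in either line, and the NB4 mean went from 207 ± 15.7 to 141 ± 6.80 RPKM (log2 fold change -0.55, SE 0.09, adjusted p = 0.0004). RAN was not called in NB4 after quantile normalization.

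RANGAP1 is the GTPase-activating protein that turns RAN-GTP into RAN-GDP at the cytoplasmic side. Its MOLM-13 values were 7.73, 4.50 and 9.26 RPKM with DMSO and 1.84, 4.39 and 3.22 with FP54. FP54 replicate 2 lay just below DMSO replicate 2, so the groups were barely apart in this line. The mean went from 7.17 ± 2.43 to 3.15 ± 1.27 RPKM (SD, n = 3), a log2 fold change of -1.18 (SE 0.33, adjusted p = 0.032). In NB4 it was at 42.3, 53.1 and 47.0 RPKM with DMSO and at 26.2, 28.6 and 25.8 with FP54, well apart, with a log2 fold change of -0.82 (SE 0.10, adjusted p = 7.57e-05).

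RANBP1, which binds RAN-GTP and assists RANGAP1, had the largest fitted fall of any tested member in both lines. In MOLM-13 it was at 39.3, 27.97 and 53.4 RPKM with DMSO and at 10.4, 26.3 and 16.4 with FP54 (log2 fold change -1.23, SE 0.32, adjusted p = 0.0253). In NB4 it was at 135, 190 and 155 RPKM with DMSO and at 90.5, 84.9 and 77.8 with FP54 (log2 fold change -0.91, SE 0.12, adjusted p = 0.000143). Relative to their mean, the libraries of a group lay farther apart in MOLM-13 than in NB4. Of the RANBP1 exon length, 8.51% lies opposite TRMT2A, and whether reads were counted by strand is not stated in the sources used here.

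Over the 3 Ran cycle genes together, the mean log2 difference from the DMSO mean in MOLM-13 was 0.13, -0.48 and 0.35 in the DMSO libraries and -1.74, -0.71 and -1.04 in the FP54 libraries. DMSO replicate 2 lay nearest to the treated libraries and FP54 replicate 1 farthest from the controls. Without FP54 replicate 1 the RANGAP1 fold change was -0.85 (adjusted p = 0.129) and that of RANBP1 -0.90 (adjusted p = 0.103), both no longer called, while RAN stayed called at -0.87 (adjusted p = 0.0444). RANGAP1 also lost its call without DMSO replicate 3 of MOLM-13, and when no low genes were filtered out. In NB4 the same mean was -0.72, -0.73 and -0.84 in the FP54 libraries, and all 3 genes stayed called without any library in turn. Across the 8849 genes tested in both lines, 3.20% fell in both, and among members 3 of 52 did, all of them in the Ran cycle. This count was 1, RAN, without FP54 replicate 1 of MOLM-13, and 5 without DMSO replicate 2 (with NDC1 and NUP93) or FP54 replicate 3 (with NDC1 and NUP205) of that line. The share of all genes that fell in both lines was not computed for these fits.

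**Figure D2:**
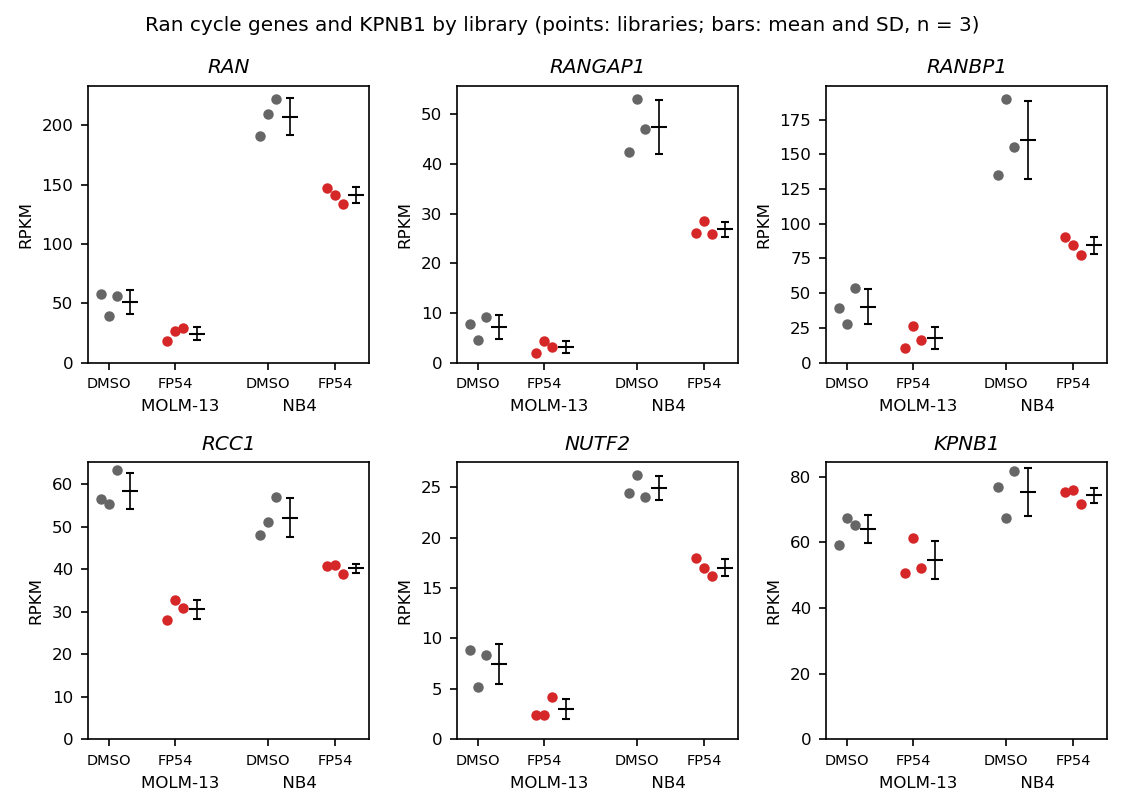
Points are the RPKM of each library (grey, DMSO; red, FP54) in MOLM-13 and NB4 on linear axes from 0, with bars for the mean and SD of 3 libraries. RAN, RANGAP1, RANBP1, NUTF2 and RCC1 are lower with FP54 in both lines, though RCC1 is called in MOLM-13 only. The KPNB1 groups overlap in both.

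Further genes that serve the Ran cycle, NUTF2 and RCC1 among them, were in a separate list of 47 transport and mRNA export genes. Of the 47, 40 were tested in each line. In each line 5 of these 40 fell (12.5%, near the 9.04% of all genes in MOLM-13 and 10.7% in NB4) and none rose by limma at the stated cutoff (9.30% and 18.6% of all genes). At an unadjusted p under 0.05, 1 was higher in each line, against 1710 of 9710 genes in MOLM-13 and 3277 of 9853 in NB4. The voom fit on recovered reads called 1 higher in MOLM-13, GLE1, whose log2 fold change of 0.499 lay just under the cutoff. NUTF2, which carries RAN-GDP back into the nucleus, fell from 7.45 ± 2.03 to 2.99 ± 1.00 RPKM in MOLM-13 (log2 fold change -1.29, SE 0.26, adjusted p = 0.0107) and from 24.9 ± 1.18 to 17.0 ± 0.876 RPKM in NB4 (-0.55, SE 0.08, adjusted p = 0.000393). RCC1, the nuclear exchange factor that loads RAN with GTP, was at 56.6, 55.5 and 63.4 RPKM with DMSO and 28.1, 32.7 and 30.8 with FP54 in MOLM-13 (log2 fold change -0.94, SE 0.13, adjusted p = 0.0027). In NB4 its change was smaller and not called (52.1 ± 4.58 to 40.2 ± 1.104 RPKM, log2 fold change -0.37, adjusted p = 0.00468), though all FP54 libraries lay below all DMSO libraries. The difference between lines passed its own test (0.57, SE 0.15, adjusted p = 0.0214). RANBP3 and RANGRF, from the same list, were called by limma in neither line. RANBP3 was -0.17 in MOLM-13 (adjusted p = 0.394) and -0.44 in NB4 (adjusted p = 0.00508). RANGRF was -0.45 in MOLM-13 (adjusted p = 0.147) and -0.29 in NB4 (adjusted p = 0.0669).

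Of the 40 other genes tested, 4 fell in both lines, NUTF2 and the mRNA export genes that follow, against 3 of 52 members and 3.20% of all genes. The mRNA export genes that fell in both lines were ALYREF, an adaptor that joins mRNA to the export receptor, DDX39A, an RNA helicase of the same step, and NXT1, the small partner of the receptor NXF1. ALYREF was at 41.1, 27.0 and 43.99 RPKM with DMSO and 12.4, 16.5 and 20.5 with FP54 in MOLM-13 (log2 fold change -1.18, SE 0.22, adjusted p = 0.00867). In NB4 it was at 125, 156 and 145 RPKM with DMSO and 75.1, 72.4 and 68.1 with FP54 (-0.98, SE 0.10, adjusted p = 2.12e-05). The groups were apart in both lines. NXT1 changed by -1.12 (SE 0.27) in MOLM-13 and -0.75 (SE 0.11) in NB4, and DDX39A by -0.75 (SE 0.18) and -0.67 (SE 0.08). NXT1 had as few as 23 reads in a MOLM-13 library. SEM1, a small TREX-2 subunit, fell in NB4 (-0.63, SE 0.09, adjusted p = 0.000274) and was -0.18 in MOLM-13 (adjusted p = 0.511).

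Among the nucleoporins of the outer ring, the Y-shaped scaffold on both faces of the pore, 1 of 8 fell in MOLM-13 (9.04% of all genes) and none was called in NB4 (10.7% of all genes fell). In NB4, 4 of the 8 were lower at an unadjusted p below 0.05, as were 2433 of all 9853 genes. SEH1L, which also serves the GATOR2 complex of the nutrient-sensing pathway, was at 7.42, 4.17 and 6.85 RPKM with DMSO and at 2.27, 2.83 and 4.00 with FP54 in MOLM-13 (log2 fold change -0.99, SE 0.26, adjusted p = 0.0264). Its call was lost without DMSO replicate 1 or 3 and without FP54 replicate 1 or 2, its fold change running from -1.24 to -0.81 over the 6 sets, and DMSO replicate 2 lay close to FP54 replicate 3. In NB4 it was at 14.1, 10.9 and 13.9 RPKM with DMSO and at 10.0, 10.1 and 10.3 with FP54 (-0.34, SE 0.11, adjusted p = 0.0243). SEC13, shared with the COPII coat of secretory vesicles, was below all DMSO libraries in all FP54 libraries of both lines and was not called (MOLM-13 -0.38, SE 0.13, adjusted p = 0.0696; NB4 -0.41, SE 0.10, adjusted p = 0.00584). NUP107, NUP133, NUP160, NUP85, NUP37 and NUP43 had fitted values between -0.15 and 0.096 in MOLM-13 and between -0.38 and -0.013 in NB4.

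The inner ring, which links the scaffold to the membrane and the channel, had 2 of 5 members fall in NB4 (10.7% of all genes fell). NUP93, its central linker, was at 14.9, 13.6 and 14.7 RPKM with DMSO and at 9.86, 9.33 and 9.33 with FP54 (log2 fold change -0.59, SE 0.09, adjusted p = 0.000277). NUP205, a large scaffold partner of NUP93, was at 44.9, 33.6 and 44.02 RPKM with DMSO and at 29.9, 26.3 and 27.9 with FP54 (-0.53, SE 0.12, adjusted p = 0.00321), and its call was lost without DMSO replicate 1 or 3 or FP54 replicate 2. The groups were apart for both genes. In MOLM-13 none of the 5 was called by limma at the stated cutoff, and 2 were lower at an unadjusted p below 0.05 (1692 of all 9710 genes). Yet all 5 fitted values were below 0 (49.7% of all genes were), from -0.60 for NUP93 (1.54 to 2.41 RPKM with FP54, 1.91 to 3.80 with DMSO) to -0.29 for NUP155. DMSO replicate 2 lay within the FP54 range for NUP93, NUP188, NUP155 and NUP35, and without it NUP93, NUP188 and NUP35 were called lower.

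Of the central channel nucleoporins, which carry the phenylalanine-glycine repeats that form the permeability barrier, NUP62 fell in NB4. It was at 21.1, 22.8 and 20.6 RPKM with DMSO and at 12.4, 11.03 and 11.2 with FP54, or 53.7% of the DMSO mean (log2 fold change -0.89, SE 0.09, adjusted p = 2.24e-05). In MOLM-13 it was at 27.1, 21.9 and 26.9 RPKM with DMSO and at 20.2, 18.3 and 19.8 with FP54 (-0.37, SE 0.14, adjusted p = 0.0862), also apart but not called. Part of its exon length overlaps other genes, 11.96% on the same strand (IL4I1 and ENSG00000269179) and 9.38% on the other (ATF5). Its channel partners NUP58 and NUP54 had NB4 values of 0.38 (adjusted p = 0.0562) and 0.14, and NUP98 of -0.079.

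On the cytoplasmic filaments, NUP88 fell in MOLM-13, from 8.86, 6.91 and 9.08 RPKM to 3.67, 4.70 and 5.03 RPKM (log2 fold change -0.88, SE 0.18, adjusted p = 0.0107). The corresponding NB4 value was -0.36 (SE 0.09, adjusted p = 0.00856), with the groups apart and the change under the fold cutoff. The exons of NUP88 lie opposite RABEP1 and RPAIN over 35.5% of their length. NUP214, the partner of NUP88, was 0.24 in MOLM-13 and 0.039 in NB4, both not called, and RAE1 was -0.30 and -0.20. RANBP2, which anchors SUMO-modified RANGAP1 at the pore and has close copies in the RGPD genes, was -0.18 and 0.11.

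No nuclear basket gene was called in either line by limma at the stated cutoff, and none had an unadjusted p below 0.05. Of all genes, 9.04% fell and 9.30% rose in MOLM-13, and 10.7% fell and 18.6% rose in NB4. The lack of a call among 3 genes therefore does not set the basket apart. NUP50 was -0.17 (SE 0.14) in MOLM-13 and 0.013 (SE 0.11) in NB4. TPR had the widest relative spread of the 3 basket genes among the NB4 controls, at 30.8, 21.3 and 14.7 RPKM with DMSO against 31.5, 27.6 and 28.4 with FP54 (log2 fold change 0.45, SE 0.21, adjusted p = 0.0919). Without DMSO replicate 1 its NB4 value was 0.71 and was called. In MOLM-13, TPR was at 47.4 to 51.1 RPKM with DMSO and 48.3 to 57.2 with FP54, which overlapped.

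The membrane ring held the members that rose. AAAS (aladin), which is tethered to the membrane by NDC1, rose in MOLM-13 from 10.3, 11.7 and 10.4 RPKM to 20.0, 18.2 and 15.4 RPKM (log2 fold change 0.71, SE 0.15, adjusted p = 0.0115). All treated libraries lay above all controls, and the call was kept without any library in turn. In NB4 AAAS was at 11.5, 13.7 and 11.7 RPKM with DMSO and at 11.9, 10.7 and 11.8 with FP54 (-0.10, SE 0.10, adjusted p = 0.423). NDC1 itself fell in NB4, from 22.5, 16.3 and 21.6 RPKM to 13.5, 13.8 and 14.7 RPKM (-0.50, SE 0.12, adjusted p = 0.0055), just past the fold cutoff, and its call was lost when DMSO replicate 1, DMSO replicate 3, FP54 replicate 1 or FP54 replicate 2 was left out (-0.65 to -0.42 over the 6 sets). In MOLM-13 NDC1 was at 9.61, 5.91 and 7.23 RPKM with DMSO and at 3.37, 3.92 and 6.15 with FP54 (-0.77, SE 0.24, adjusted p = 0.053), and narrowly missed the p cutoff.

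NUP210, a transmembrane nucleoporin known for its cell type dependent use, rose in NB4. It was at 29.9, 27.1 and 26.4 RPKM with DMSO and at 48.4, 46.1 and 43.3 with FP54 (log2 fold change 0.73, SE 0.09, adjusted p = 6.73e-05). In MOLM-13 it was at 24.6, 13.5 and 20.6 RPKM with DMSO and at 10.7, 11.7 and 17.5 with FP54 (-0.54, SE 0.24, adjusted p = 0.14), which overlapped. It was called lower there without DMSO replicate 2 (-0.79, adjusted p = 0.032) or without FP54 replicate 3, and ran from -0.79 to -0.36 over the sets that left out a library. POM121 was -0.19 in MOLM-13 and 0.19 in NB4, and its close copy POM121C -0.045 and 0.40, values that depend on how reads shared by the copies were counted.

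Importin alpha proteins recognise the classical nuclear localisation signal and hand it to KPNB1. KPNA3 fell in MOLM-13 from 9.89, 6.15 and 7.56 RPKM to 3.06, 3.62 and 5.10 RPKM (log2 fold change -0.99, SE 0.23, adjusted p = 0.0169). KPNA1 fell there too, from 5.40 ± 0.557 to 3.19 ± 0.512 RPKM (-0.75, SE 0.18, adjusted p = 0.0181). In NB4 neither was called, and the KPNA3 groups overlapped (-0.23, SE 0.15, adjusted p = 0.227). KPNA2, whose level follows proliferation in many cells, fell in NB4 from 40.9, 38.8 and 42.3 RPKM to 25.1, 23.5 and 22.3 RPKM (-0.78, SE 0.08, adjusted p = 3.36e-05). At its low MOLM-13 level it was at 3.42, 2.72 and 3.30 RPKM with DMSO and 2.27, 2.56 and 3.21 with FP54 (-0.23, SE 0.19, adjusted p = 0.413). For KPNA2 the difference between lines was -0.55 (SE 0.19, adjusted p = 0.0712) and for KPNA3 0.76 (SE 0.30, adjusted p = 0.105), so neither passed. KPNA4 and KPNA6 were between -0.22 and -0.085 in both lines.

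In the importin beta family, IPO5 and IPO7, receptors that import ribosomal proteins among other cargo, fell in MOLM-13. IPO5 went from 38.3, 30.9 and 35.5 RPKM to 13.2, 18.0 and 22.4 RPKM (log2 fold change -0.99, SE 0.19, adjusted p = 0.00908). IPO7 went from 32.1, 30.2 and 29.4 RPKM to 14.5, 18.1 and 22.4 RPKM (-0.76, SE 0.17, adjusted p = 0.0144). The groups of both genes were apart. In NB4, IPO5 was at 66.0, 54.8 and 67.4 RPKM with DMSO and at 44.7, 43.3 and 45.6 with FP54 (-0.49, SE 0.09, adjusted p = 0.00155), apart but just under the fold cutoff. IPO7 in NB4 was at 57.3, 41.3 and 55.4 RPKM with DMSO and 48.4, 49.3 and 54.1 with FP54, where the groups overlapped (-0.0070, SE 0.12, adjusted p = 0.966), a value whose sign changed with the normalization. KPNB1, the importin beta that pairs with importin alpha, was -0.23 (SE 0.14, adjusted p = 0.253) in MOLM-13 and -0.015 (SE 0.09, adjusted p = 0.902) in NB4, and its groups overlapped in both. The transportins TNPO1, TNPO2 and TNPO3 were between -0.29 and 0.089 in MOLM-13 and between -0.12 and -0.071 in NB4, none of them called. IPO8 was -0.23 and 0.098 in MOLM-13 and NB4, IPO11 -0.37 and -0.47, and IPO13, tested in NB4 alone, -0.42 (adjusted p = 0.00473).

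Among the exportins, XPOT, which carries tRNA out of the nucleus, fell in MOLM-13. It was at 47.5, 47.3 and 41.1 RPKM with DMSO and at 24.5, 24.3 and 33.6 with FP54 (log2 fold change -0.73, SE 0.16, adjusted p = 0.0134). In NB4 all FP54 libraries were instead above all DMSO libraries, at 68.0, 72.9 and 70.5 against 56.0, 44.7 and 55.1 RPKM (0.45, SE 0.10, adjusted p = 0.00343). The NB4 change lay under the fold cutoff, and quantile normalization brought it past. XPO5, which exports microRNA precursors, was at 7.55, 3.20 and 5.84 RPKM with DMSO and 1.95, 2.93 and 4.10 with FP54 in MOLM-13 (-0.84, SE 0.33, adjusted p = 0.096), overlapping. XPO5 was called lower there without DMSO replicate 2 (-1.18, adjusted p = 0.0195) or without FP54 replicate 3, and ran from -1.18 to -0.57. The NB4 values were 22.7, 20.2 and 22.9 against 16.9, 15.2 and 15.1 RPKM (-0.48, SE 0.09, adjusted p = 0.00147). CSE1L, which returns importin alpha to the cytoplasm, was -0.48 in both lines (MOLM-13 SE 0.19, adjusted p = 0.103; NB4 SE 0.10, adjusted p = 0.00233), under the fold cutoff, and its NB4 groups were apart (55.8 to 72.7 RPKM with DMSO, 45.4 to 45.9 with FP54). XPO1 (CRM1), the general export receptor for proteins and for ribosomal subunits, had positive fitted values that were not called, 0.41 in MOLM-13 (adjusted p = 0.118) and 0.22 in NB4 (adjusted p = 0.231). XPO4, XPO6 and XPO7 were between -0.28 and 0.052 in both lines.

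**Figure D3:**
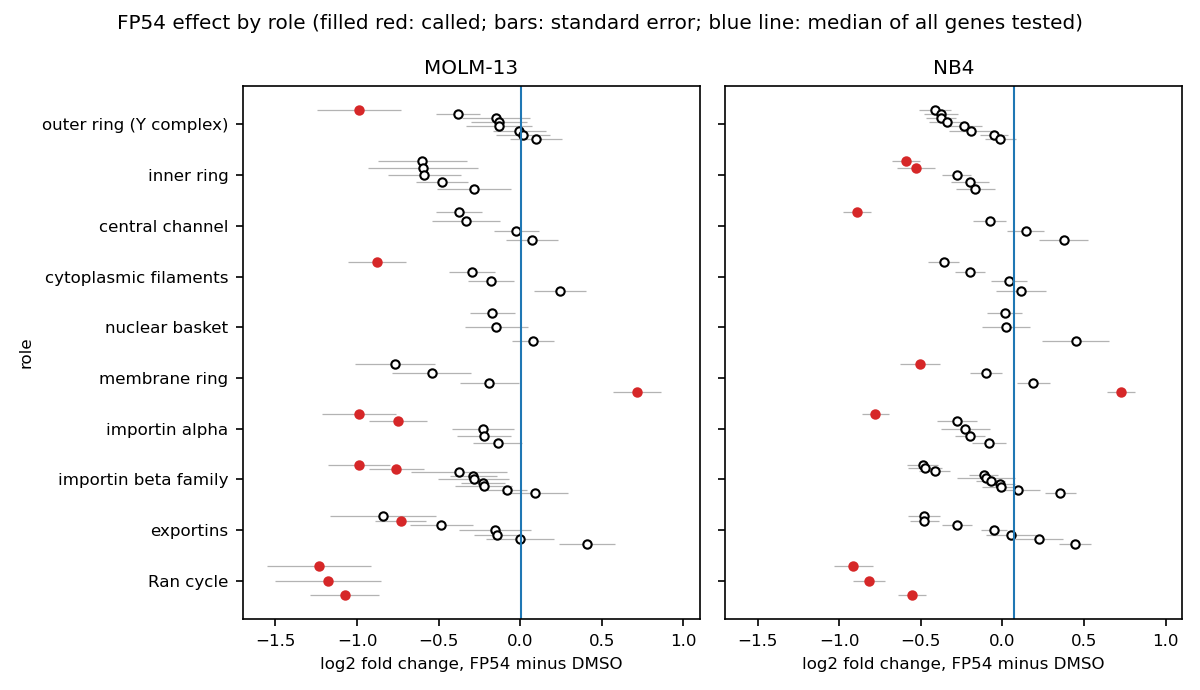
Each point is the log2 fold change of a member, FP54 minus DMSO, with its standard error, arranged by role for MOLM-13 (left) and NB4 (right), filled red where called, and the blue line is the median of all genes tested (0.0033 and 0.070). All 3 Ran cycle genes are filled in both panels, and none of the 3 nuclear basket genes is filled in either. The filled points to the right of 0 are AAAS in MOLM-13 and NUP210 in NB4. Of all genes, 9.04% fell and 9.30% rose in MOLM-13, and 10.7% fell and 18.6% rose in NB4.

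The effect of FP54 differed between the lines, by a model of all 12 libraries at an adjusted p below 0.05, for 6 of 52 members (11.5%, against 14.2% of 8849 genes), of which 4 were more positive in NB4 (10.5% of genes) and 2 less. No member was called in opposite directions at the stated settings. XPOT was with quantile normalization and without DMSO replicate 1 of NB4, and NUP210 was without DMSO replicate 2 or FP54 replicate 3 of MOLM-13. For XPOT the difference, NB4 minus MOLM-13, was 1.18 (SE 0.19, adjusted p = 0.000843), and for NUP210 it was 1.27 (SE 0.28, adjusted p = 0.00816). AAAS differed the other way, by -0.81 (SE 0.18, adjusted p = 0.00642). These 3 genes passed in each of 12 fits that left out a library, and without FP54 replicate 2 of NB4 the count was 3. The share of all genes that differed in that fit was not computed.

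The other 3 were less stable. IPO9, an importin for histones and ribosomal proteins among others, was at 9.07, 8.42 and 8.91 RPKM with DMSO and 6.99, 6.63 and 8.02 with FP54 in MOLM-13 (-0.29, SE 0.14, adjusted p = 0.18). In NB4 it was at 12.4, 10.5 and 12.5 against 15.1, 15.4 and 14.7 RPKM (0.35, SE 0.10, adjusted p = 0.00986). It was thus lower with FP54 in every MOLM-13 library and higher in every NB4 library, was called in neither line, and differed by 0.64 (SE 0.16, adjusted p = 0.0158), passing in 11 of 12 fits (adjusted p up to 0.0515). IPO7 differed by 0.75 (SE 0.22, adjusted p = 0.0332) and passed in 5 of 12 fits (0.60 to 0.91, adjusted p up to 0.0895), and NUP62 by -0.52 (SE 0.16, adjusted p = 0.0431), passing in 2 of 12 (-0.57 to -0.42, adjusted p up to 0.115). None of the Ran cycle genes passed this test.

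**Figure D4:**
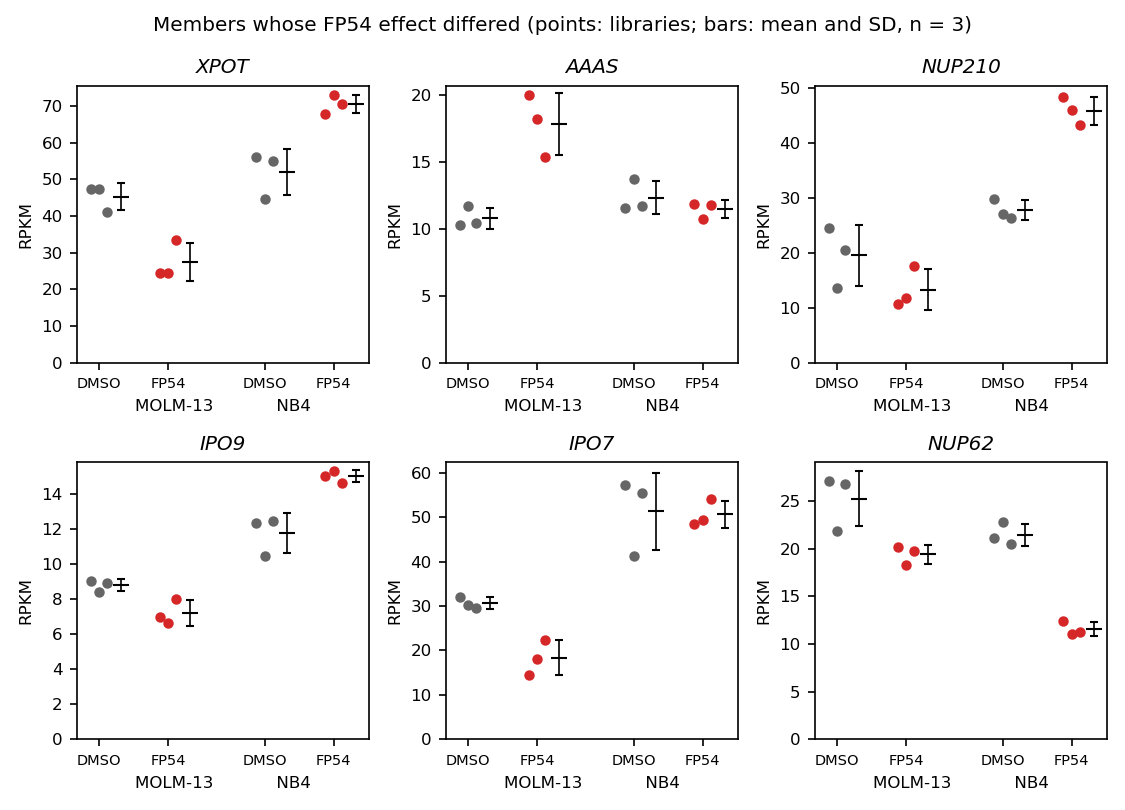
Points are the RPKM of each library (grey, DMSO; red, FP54) in MOLM-13 and NB4 on linear axes from 0, with bars for the mean and SD of 3 libraries, for the 6 members whose FP54 effect differed between the lines. XPOT and IPO9 are lower with FP54 in MOLM-13 and higher in NB4, AAAS is higher in the MOLM-13 FP54 libraries, and NUP62 is lower in both with the larger difference in NB4.

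Across the 52 members tested in both lines, 34 had fitted values below 0 in both (65.4%, against 32.1% of all genes). The log2 fold changes of the lines were related across genes with Pearson's r = 0.44 and Spearman's rho = 0.49, against 0.44 and 0.49 over all 8849 genes, given as a description because genes are not independent replicates and the members of a line share its libraries. By the rule on the adjusted p alone, 6 of 52 members were lower in both lines (11.5%, against 5.05% of all genes), namely the Ran cycle genes, IPO5, NUP88 and SEH1L. XPOT was the member that passed in opposite directions (1.92%, against 1.55% of all genes).

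**Figure D5:**
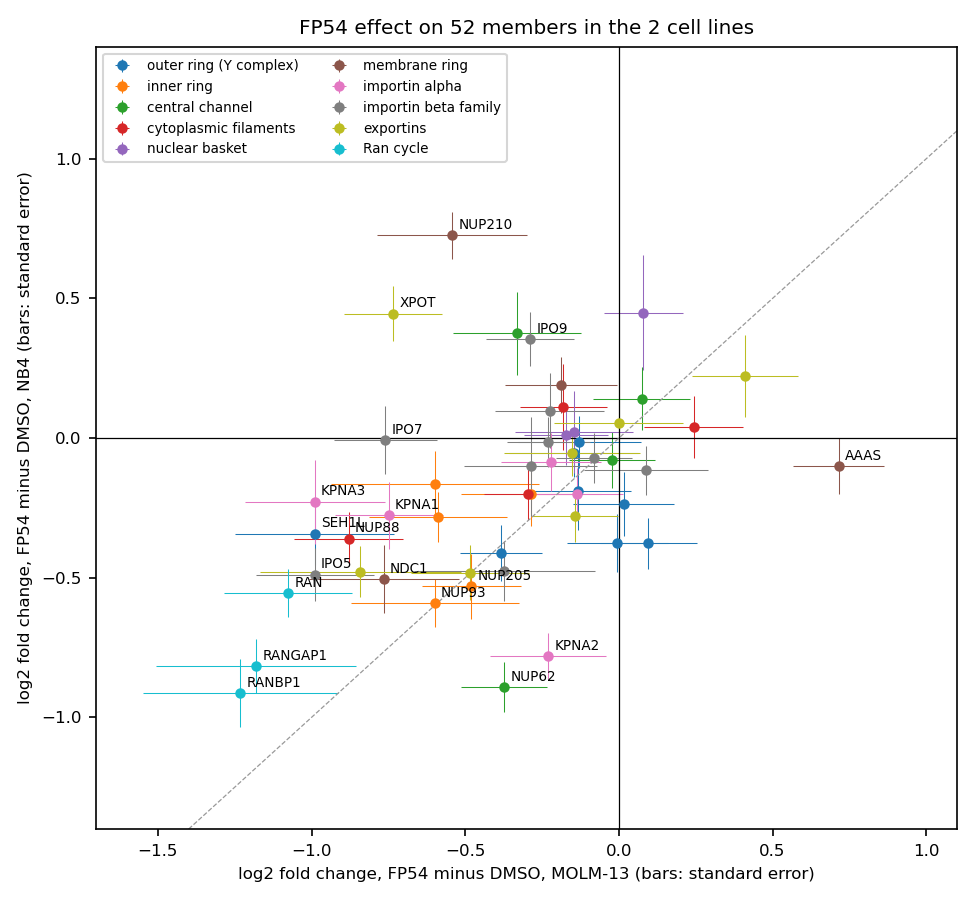
Each point is 1 of 52 members tested in both lines, with the log2 fold change in MOLM-13 on the x axis and in NB4 on the y axis, bars for standard errors, colours for roles and a dashed line where the lines are equal. The Ran cycle genes sit at the lower left, XPOT and NUP210 at the upper left and AAAS at the right near 0 on the y axis.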

How the data were processed

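Poly(A) mRNA of 12 samples (3 DMSO and 3 FP54 in each of MOLM-13 and NB4) was analysed, and 10 other samples of the series, m6A immunoprecipitation and polysome libraries, were not analysed here. Per the study's methods and the submitters' processing notes, the authors trimmed single-end reads with Cutadapt 4.8, removed duplicates, aligned to hg38 with STAR 2.7.11b, counted protein-coding genes with featureCounts 2.0.3 and deposited RPKM values, one table for each line. The RPKM were not counts, so limma 3.58.1 (R 4.3.3, eBayes with trend) was fitted on log2(RPKM + 0.1) to genes with a mean of at least 1 RPKM, separately in each line. Genes were called at p below 0.01 with an absolute log2 fold change of 0.5 or more, the cutoff of the study's methods. The difference between lines came from a model of all 12 libraries over genes tested in both, where a scale for each line cancels. The log2 fold changes of low genes are understated by the pseudocount. An exact permutation test of 3 against 3 libraries cannot go below p = 0.1 and was not used.

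Read numbers were recovered from the RPKM with GENCODE v44 exon lengths of 20304 of 20411 genes. Between 98.6% and 99.2% of values up to 100 reads came out within 0.05 of a whole number, and these reads gave the depths and a limma-voom alternative. Gene annotation and overlaps came from GENCODE v44 (hg38), which is not the release the authors used. No libraries held identical values. Replicate numbers were checked as pairs and did not pair the samples. The fits were tested on simulated data. The alternatives were other pseudocounts, filters, scalings, variance settings and cutoffs, a replicate block, recovered reads and leaving out each library, and the olfactory receptor subtraction was chosen after seeing the data. Members, roles and lists were chosen with earlier results of these data known. Members named with full values were the largest change of each role in each line, those called in both lines and those whose effect differed between lines, plus other members called. A further list of markers of another cell type is not reported here.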

Additional observations from a re-analysis of the deposited data

Results flagged for a closer look

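For 6 of 52 members (11.5%, below the 14.2% of all 8849 genes) the effect of FP54 differed between the lines by the interaction test of limma (adjusted p below 0.05, 3 libraries per group). The difference in log2 fold change, NB4 minus MOLM-13, was 1.18 for XPOT, 1.27 for NUP210, 0.64 for IPO9 and 0.75 for IPO7. It was -0.81 for AAAS and -0.52 for NUP62. XPOT and IPO9 were lower with FP54 in every MOLM-13 library and higher in every NB4 library, whereas NUP62 was lower in both lines. The NB4 FP54 libraries were the shallower ones in NB4 and held the higher olfactory receptor level, and the part of these in the differences was not tested. Subtracting that level, at most 0.0544 RPKM, could hardly move a fold change of the members.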

How the results depend on the processing

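At p below 0.05 and an absolute log2 fold change of 1 or more, 3 members were lower and 0 higher in MOLM-13, 0 were lower and 0 higher in NB4, and 0 members, hence 0 Ran cycle genes, were lower in both lines, while 3 of the other transport genes were lower in MOLM-13 and 0 in NB4. Of all genes, 3.35% were lower and 2.47% higher in MOLM-13 by this rule, and 1.4% and 6.85% in NB4. At adjusted p below 0.05, 20 members were lower and 3 higher in NB4, 6 were lower in both lines, and of the other genes 16 were lower and 1 higher in NB4 and 1 was higher in MOLM-13. Of all genes, 22.0% were lower and 29.8% higher in NB4 by that rule, 5.05% were lower in both lines and 9.84% higher in MOLM-13. Median-ratio scaling gave 5 members lower in both lines and 8 other genes lower in NB4 (13.5% of all genes in NB4). The share of all genes lower in both lines was not computed for this scaling or for the cutoff at a log2 fold change of 1. Quantile normalization gave 2 members higher in NB4 (13% of all genes). A pseudocount of 0.01, quantile normalization and limma-voom each gave 1 other gene higher in MOLM-13 (9.31%, 10.2% and 10.5% of all genes). No filter gave 2 in NB4 (27.9% of all genes). Without a filter, 4967 genes were higher in NB4 and the median of all genes was 0.24. The NB4 values of IPO7 (0.16 with quantile normalization) and NUP50 (-0.052 with median-ratio scaling) changed sign. The causes were not tested. A stricter filter, a mean of 5 RPKM, left 40 members in MOLM-13, so some had no value there.

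Leaving out each library in turn gave 7 to 16 members lower and 1 higher in MOLM-13, 6 to 12 lower and 1 to 3 higher in NB4, 1 to 5 lower in both lines, 1 to 3 Ran cycle genes lower in both and 3 to 9 members whose effect differed. The lowest of these came without FP54 replicate 1 for MOLM-13 and for both lines (7 and 1), and without FP54 replicate 2 of NB4 for the difference (3). The 16 came without DMSO replicate 2 or FP54 replicate 3 of MOLM-13. Over the same sets, 4.76% to 12.4% of all genes were lower and 5.57% to 11.5% higher in MOLM-13. In NB4, 10% to 11.1% of all genes were lower and 17% to 21.9% higher. The shares of all genes lower in both lines, or with an effect that differed, were not computed for these sets. At the stated settings they were 3.20% and 14.2%. Of the other genes, 5 to 8 were lower and 0 to 1 higher in MOLM-13 and 5 to 6 lower and 0 higher in NB4. The members' median ran from -0.35 to -0.18 in MOLM-13 and from -0.23 to -0.10 in NB4. IPO7 in NB4 ran from -0.16 to 0.079 and NUP50 from -0.11 to 0.095. In all of these sets 7 of 10 lower calls in MOLM-13, 6 of 8 in NB4 and both higher calls were kept.

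Same-numbered libraries deviated with correlations of -0.26, -0.13 and -0.058 in MOLM-13 and -0.14, 0.075 and 0.12 in NB4, and no MOLM-13 library and not every NB4 library correlated best with its own number, so the numbers were not taken as pairs. The positive correlations in MOLM-13 joined different numbers, DMSO 1 with FP54 3 (0.59), DMSO 2 with FP54 1 (0.49) and DMSO 3 with FP54 2 (0.47). Nothing in the labels pairs these libraries, and no fit with such pairs was run. With the replicate block, 11 members were lower in MOLM-13 (9.06% of all genes), NDC1 being added, 8 in NB4 (10.7% of all genes) and 4 in both lines, and the effect differed between lines for 4 members, IPO7 (adjusted p = 0.0607) and NUP62 (adjusted p = 0.0783) no longer passing. The shares of all genes lower in both lines, or differing between lines, were not computed with the block. Depth limits the low members of MOLM-13 most, such as NUP35 with 32 reads in its shallowest library.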
